A study of Homo sapiens with 12 samples.

Results

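The genes described here encode the proteins of the mitochondrial ribosome that carry an MRPL or MRPS symbol. They were chosen by symbol alone, as MRPL or MRPS followed by a number and at most 1 letter, and each gene was represented by the feature with its highest mean over the 12 arrays. Of 13422 named genes on the array, 77 met this rule, through 93 features of 34487 in all. All 77 are textbook components of the mitochondrial ribosome, 51 of the large subunit and 26 of the small subunit. Among them, 46 have a counterpart in the bacterial ribosome and 31 are specific to mitochondria. The arrays measured mRNA of PANC-1 cells, a human pancreatic ductal carcinoma cell line, in 4 groups of 3 arrays. The HPM group was co-cultured with tumor-associated macrophages (TAMs) under hypoxia, the HPC group was grown alone under hypoxia, the NPM group was co-cultured with TAMs under normoxia, and the NPC group was grown alone under normoxia. Co-culture ran for 4 days across the membrane of a transwell, and the macrophages had been made from the THP-1 monocyte line with IL-4 and IL-13, so that neither cell type came from a patient. The sources read here give no oxygen level for the hypoxia. The authors state in general that their data come from independent experiments unless noted otherwise, but do not say so of these arrays. What a replicate number marks is not given.

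Mitochondria make a small set of proteins themselves, which are core subunits of the respiratory chain and of ATP synthase, and the mitochondrial ribosome translates only these. Its ribosomal RNAs come from mitochondrial DNA, whereas every one of its proteins is encoded in the nucleus, made in the cytosol and imported. The small subunit binds the mRNA and holds the decoding site, and the large subunit holds the site where peptide bonds form and the tunnel through which the new chain leaves toward the inner membrane. Respiration in tumour cells depends on these proteins and is known to fall when oxygen is low.

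Across all features the arrays were alike in scale, with lower quartiles of 7.65 to 7.74 and upper quartiles of 10.8 to 10.9 on the log2 scale, and the correlation between arrays was 0.942 to 0.973 within groups and 0.909 to 0.972 between groups. The arrays numbered 3 of each group lay at the same end of their group on the second principal component, which held 19.5% of the variance. All 6 epithelial genes were measured, with mean log2 intensities of 11.53 to 11.58 in HPM arrays, 11.84 to 11.94 in HPC arrays, 11.10 to 11.39 in NPM arrays and 11.54 to 11.69 in NPC arrays. Of 20 macrophage markers 14 were measured. Their mean log2 intensity lay at 6.99 to 7.05 in HPM arrays, 7.0 to 7.29 in HPC arrays, 6.98 to 7.01 in NPM arrays and 7.19 to 7.47 in NPC arrays. This mean was not higher in the co-cultured cells, but single markers went both ways. In NPM against NPC 7 were lower and 7 higher, and in HPM against HPC 11 were lower and 3 higher. The largest fall in NPM against NPC was that of LCP1, with a log2 fold change of −3.24 (limma, adjusted p = 0.00677). This call was lost with the replicate number as a block, and in 5 of the 6 fits with 1 array left out. CSF1R, MRC1, PTPRC and SPI1 were among those not measured here, and since an intensity has no true zero no marker can be called absent. The part of these lists in the values of the mitochondrial ribosomal genes was not tested. Among 19 hypoxia-induced genes, 17 passed the test and were higher in HPM than in NPM cells, against 4.65% of all features. The median log2 fold change over the list was 1.43. With 1 array left out 3 to 13 of the 19 passed, with the fewest without NPM replicate 2, and none did without the arrays numbered 3. The median was 1.06 in HPC against NPC cells.

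As a group, the mitochondrial ribosomal protein genes were lowest in cells that had both hypoxia and TAMs and highest in cells that had neither. To set genes of different brightness side by side, each gene's log2 intensity was taken as a deviation from its own mean over the 12 arrays, and the median deviation over the 77 genes was read off for each array. This median was −0.19, −0.29 and −0.25 in the HPM arrays, −0.03, 0.05 and −0.03 in the HPC arrays, −0.04, 0.02 and −0.03 in the NPM arrays, and 0.25, 0.36 and 0.23 in the NPC arrays. The HPM arrays all lay below the HPC and NPM arrays, the NPC arrays all lay above them, and the HPC and NPM arrays overlapped. The same median taken over all features stayed between −0.01 and 0.08 in every array. As group means, the deviation was −0.24 ± 0.05 (SD, n = 3) in HPM, −0.01 ± 0.05 in HPC, −0.02 ± 0.03 in NPM and 0.28 ± 0.07 in NPC. The HPC and NPM groups thus did not differ beyond their spread. In single arrays, 14 to 23 of the 77 genes lay above their own mean in HPM, against 63 to 72 in NPC.

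**Figure D1:**
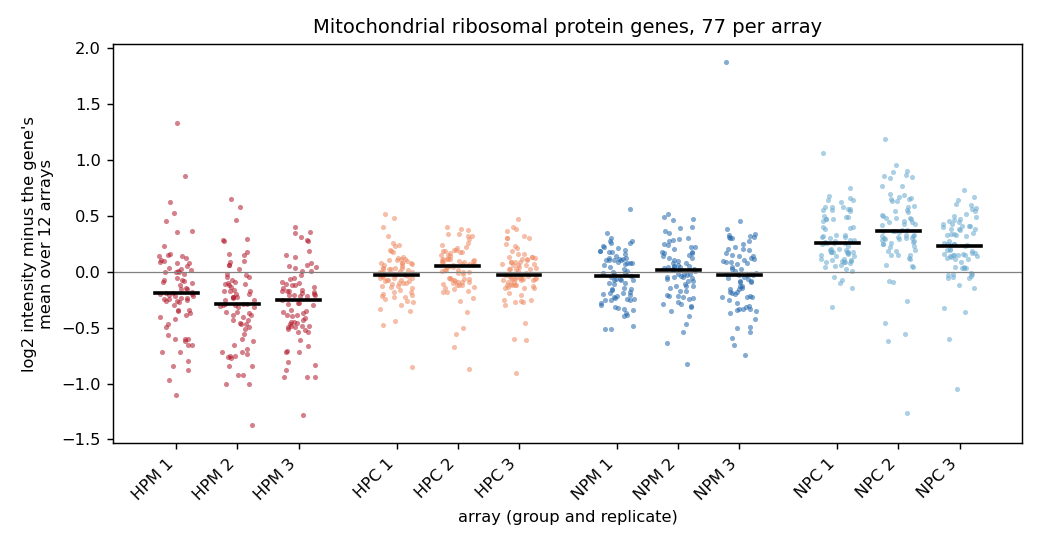
Each point is 1 of the 77 mitochondrial ribosomal protein genes on 1 array, drawn as its log2 intensity minus the mean of that gene over 12 arrays (vertical axis), with the arrays of the HPM, HPC, NPM and NPC groups along the horizontal axis and a black bar at the median of each array. The bars of the HPM arrays lie at −0.19 to −0.29 and those of the NPC arrays at 0.23 to 0.36, with the HPC and NPM arrays between them near 0.

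Gene by gene, the NPC group had the highest of the 4 group means for 60 of the 77 genes, against 27.2% of all features, and the HPM group had the lowest for 54, against 31.9% of all features. The signal comes from RNA pooled over a whole culture, so that fewer expressing cells and less RNA per cell cannot be told apart. The 77 genes also varied together over the 12 arrays. The correlation of a gene with the mean of the other 76 had a median of 0.742 over the genes, and it was above 0 for 68 and below 0 for 9. It was highest for MRPS17 (r = 0.960), MRPL53 (0.931) and MRPS23 (0.923), and lowest for MRPL57 (−0.779), MRPL10 (−0.741) and MRPL17 (−0.635). These values describe 12 arrays that share 1 normalization and the differences between 4 groups.

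The comparison of hypoxia with normoxia in the presence of TAMs was the only pairwise comparison in which any of the 77 genes passed the adjusted test in the fit of its 6 arrays. Here 8 of the 77 genes were lower and 1 was higher in HPM than in NPM cells at an adjusted p under 0.05, as given by limma over the 6 arrays with Benjamini-Hochberg adjustment over all 34487 features. That is 11.7% of the genes, against 10.4% of all features, so that the share that passed was close to the background. By direction, 10.4% of the genes passed as lower, against 5.79% of all features, and 1 gene as higher, against 4.65%. At an unadjusted p under 0.05, 20 were lower and 3 higher, against 14.9% and 13% of all features. For 29 genes the HPM arrays lay wholly below the NPM arrays, against 18.2% of all features, and for 7 wholly above, against 16.3%. The median log2 fold change of the 77 genes was −0.23, against −0.002 over all features, and 57 values were negative, against 50.2% of all features. The calls rest on the full set of arrays. Leaving out HPM replicate 1, 2 or 3 gave 3, 1 and 2 genes, of which 2, 1 and 2 were among the 9. Over all features 1476, 678 and 1129 passed in these fits. Leaving out NPM replicate 1, 2 or 3 gave 1, 0 and 2 of the 9, against 665, 191 and 1952 of all features. Without the arrays numbered 3, a choice made after the data were seen, no gene and 0 of all features passed. In that fit 14 genes were lower and 3 higher at an unadjusted p under 0.05, for which the share over all features is not given.

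MRPS12 had the smallest p. It encodes a protein of the decoding centre of the small subunit, the counterpart of the bacterial protein at which streptomycin resistance mutations arise. Its log2 intensity was 10.58, 10.64 and 10.44 in HPM cells, 11.46, 11.44 and 11.32 in HPC cells, 11.49, 11.66 and 11.76 in NPM cells and 11.78, 12.06 and 11.92 in NPC cells. The HPM arrays stood apart below all others, and the HPC, NPM and NPC arrays followed in that order with no overlap between groups. MRPS12 fell by 1.08 on the log2 scale in HPM against NPM cells (standard error 0.15, adjusted p = 0.0133), which is 2.12-fold. It was the only one of the 9 genes to pass when HPM replicate 2 or NPM replicate 1 was left out, and without NPM replicate 2 its adjusted p was 0.062. The gene has a further feature, which fell by 0.71 (adjusted p = 0.0407).

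MRPL15 encodes a large-subunit protein with a bacterial counterpart. It had log2 intensities of 10.31, 9.90 and 10.19 in HPM cells, against 11.01, 11.40 and 11.24 in NPM cells, and fell by 1.09 (standard error 0.18, adjusted p = 0.0204). The HPC arrays, at 10.80, 11.09 and 10.84, lay above the HPM arrays and overlapped the NPM arrays. MRPL53, a large-subunit protein that bacteria lack, was at 8.94, 8.59 and 8.72 in HPM cells and 9.50, 10.00 and 9.71 in NPM cells, and fell by 0.98 (standard error 0.19, adjusted p = 0.0278). MRPL50, another protein found only in the mitochondrial ribosome, was at 8.04, 7.99 and 8.53 in HPM cells and 8.99, 9.31 and 9.04 in NPM cells, and fell by 0.92 (adjusted p = 0.0375). For each of these genes the 2 groups of the comparison did not overlap.

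MRPS16 had its lowest values in both hypoxia groups. This gene encodes a small-subunit protein with a bacterial counterpart, and inherited loss of it is known to impair mitochondrial translation. Its log2 intensity was 9.43, 9.38 and 9.18 in HPM cells, 9.60, 9.29 and 9.24 in HPC cells, 10.41, 10.31 and 9.87 in NPM cells and 10.52, 10.51 and 10.42 in NPC cells. All 6 hypoxia arrays lay below all 6 normoxia arrays, and the HPM and HPC arrays overlapped. MRPS16 fell by 0.87 in HPM against NPM cells (standard error 0.19, adjusted p = 0.0387), and in HPC against NPC cells its log2 fold change was −1.11 (standard error 0.17, adjusted p = 0.0655).

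The other genes that passed were MRPL36, MRPS7, MRPL14 and MRPL17. MRPL36, a very small protein of the large subunit, was at 11.34, 11.87 and 11.84 in HPM cells and 12.39, 12.60 and 12.60 in NPM cells, and fell by 0.85 (adjusted p = 0.0425). MRPS7, whose bacterial counterpart starts the assembly of the head of the small subunit, was at 11.35, 11.07 and 11.35 in HPM cells and 11.86, 12.04 and 12.18 in NPM cells, and fell by 0.77 (adjusted p = 0.0356). MRPL14, which lies at the face where the subunits meet and is the landing site of the assembly factor MALSU1, was at 11.71, 11.62 and 11.60 in HPM cells and 12.24, 12.38 and 12.32 in NPM cells, and fell by 0.67 (adjusted p = 0.0318). MRPS7 and MRPL14 lie outside the 6 largest falls and are named because they passed. MRPL17 went the other way. This large-subunit protein, whose bacterial counterpart sits near the tunnel exit, was at 13.17, 13.19 and 12.94 in HPM cells, 12.55, 12.89 and 12.70 in HPC cells, 12.36, 11.72 and 12.21 in NPM cells and 12.66, 11.93 and 12.22 in NPC cells. Its HPM arrays were the highest of the 12, and it rose by 1.00 in HPM against NPM cells (standard error 0.21, adjusted p = 0.0329), a 2.00-fold difference.

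**Figure D2:**
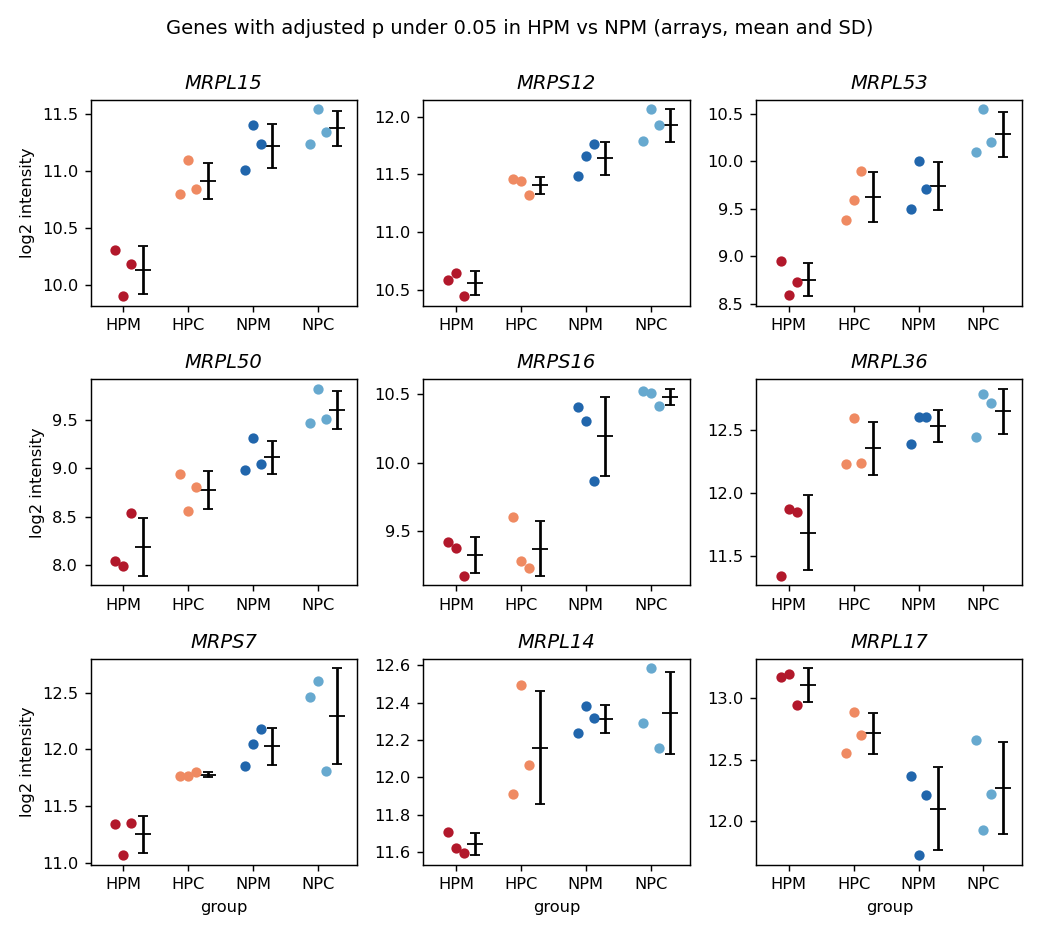
Log2 intensity (vertical axis, its range set for each panel) of the 9 mitochondrial ribosomal protein genes with an adjusted p under 0.05 in HPM against NPM, on the 3 arrays of each group (points), with the group mean and SD beside them (bars). In the panels of MRPL15, MRPS12 and MRPL53 the HPM points lie apart below all others, in that of MRPS16 the HPM and HPC points overlap, and in that of MRPL17 the HPM points are the highest.

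Promoter sequence was at hand for 69 of the 77 genes, as RefSeq windows of assembly GRCh38.p14 that span 300 bases around the start of a gene, most of them upstream. The windows of MRPS12, MRPL53, MRPS16 and MRPL17 are shown as examples of the genes that passed in HPM against NPM cells, a choice made after their values were seen. Capitals mark the letters CCGGAAG (read on the other strand CTTCCGG), which ETS factors such as GABPA bind, AAGATGGC (GCCATCTT), which YY1 binds, and, in MRPL17, a match to the motif of NRF1. Both strands were searched, and no marked runs overlapped in these windows. The genes that passed but are not shown were all lower in HPM than in NPM cells. Of these, MRPL14 and MRPL36 had the NRF1 motif, and MRPL36, MRPL50 and MRPS7 had the YY1 letters. MRPL14, MRPL36, MRPL50 and MRPS7 lacked the ETS letters, and MRPL15 had no window. As MRPL17 was the only gene that rose, these windows cannot show whether the motifs go with direction, which was not tested.
MRPS12, chr19:38930694-38930993, plus strand: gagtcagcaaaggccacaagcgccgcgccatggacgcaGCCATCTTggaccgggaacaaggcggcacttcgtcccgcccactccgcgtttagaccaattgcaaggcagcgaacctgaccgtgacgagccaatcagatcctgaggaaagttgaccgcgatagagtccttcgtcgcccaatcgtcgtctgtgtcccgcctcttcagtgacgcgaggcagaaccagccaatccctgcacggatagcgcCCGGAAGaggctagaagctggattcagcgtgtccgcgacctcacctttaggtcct
MRPL53, chr2:74472631-74472930, minus strand: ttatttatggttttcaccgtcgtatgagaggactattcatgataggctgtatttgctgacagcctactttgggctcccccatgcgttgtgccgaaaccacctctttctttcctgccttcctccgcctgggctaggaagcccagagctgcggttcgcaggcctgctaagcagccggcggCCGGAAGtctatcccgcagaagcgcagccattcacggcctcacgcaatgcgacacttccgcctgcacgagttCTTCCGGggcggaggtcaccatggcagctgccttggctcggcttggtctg
MRPS16, chr10:73252595-73252894, minus strand: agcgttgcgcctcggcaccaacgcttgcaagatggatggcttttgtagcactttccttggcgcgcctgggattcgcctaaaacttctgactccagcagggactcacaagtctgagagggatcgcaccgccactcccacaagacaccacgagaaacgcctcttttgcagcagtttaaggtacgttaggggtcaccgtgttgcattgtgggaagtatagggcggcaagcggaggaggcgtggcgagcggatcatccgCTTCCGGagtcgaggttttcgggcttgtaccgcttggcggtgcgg
MRPL17, chr11:6683291-6683590, minus strand: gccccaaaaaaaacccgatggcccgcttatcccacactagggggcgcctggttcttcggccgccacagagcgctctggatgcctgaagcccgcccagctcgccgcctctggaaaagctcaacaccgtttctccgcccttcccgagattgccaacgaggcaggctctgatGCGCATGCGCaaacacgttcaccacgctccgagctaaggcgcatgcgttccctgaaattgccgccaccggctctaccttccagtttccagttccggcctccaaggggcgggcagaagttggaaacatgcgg

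NRF1, GABPA and YY1 are known regulators of nuclear genes for mitochondrial proteins. The ETS letters stood in 42% of the 69 promoters, against 14.2% of 15843 promoters in all, and the YY1 letters in 29%, against 3.91%. The NRF1 motif stood in 11.6%, against 8.58%. The E-box CACGTG of MYC and MAX was found in 8.7% against 8.88%, the motif of ZNF143 and THAP11 in 2.9% against 1.59%, the CCAAT box in 29% against 36.4% and the TATAAA box in 2.9% against 9.63%. A match of letters is not a site of binding. For 13 of the 69 genes (18.8%, against 9.18% of all protein-coding genes) another gene started within 500 bases on the opposite strand, and all 13 partners were measured. The partner of MRPS12 is SARS2, the mitochondrial seryl-tRNA synthetase, 181 bases away, and its log2 fold change in HPM against NPM cells was −0.14 (adjusted p = 0.562), beside −1.08 for MRPS12. The partner of MRPL50, ZNF189, fell by 1.52 (adjusted p = 0.00803), and MRPL46 and MRPS11 start 320 bases apart and had log2 fold changes of −0.58 and −0.49, the first from widely scattered arrays (adjusted p = 0.714).

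Co-culture with TAMs under normoxia asks what the macrophages change in the tumour cells at ordinary oxygen. No mitochondrial ribosomal protein gene passed the adjusted test in NPM against NPC cells, where 0.0232% of all features did. At an unadjusted p under 0.05, 25 of the 77 genes (32.5%) were lower and 0 were higher, against 8% and 5.65% of all features. The median log2 fold change was −0.31, a change in intensity of −19.5%, against −0.01 over all features, and 67 of 77 values were negative, against 50.9% of all features. For 41 genes every NPM array lay below every NPC array, against 12.6% of all features, and for 0 genes above, against 8.84%. The unadjusted count of lower genes was 13, 17 and 16 without NPM replicate 1, 2 and 3, and 15, 11 and 22 without NPC replicate 1, 2 and 3. It was 16 without the arrays numbered 3. The share over all features in these smaller fits is not given, so that these counts have no background beside them.

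MRPS34, a small-subunit protein that bacteria lack, had the smallest p of this comparison. Its log2 intensity was 10.90, 11.03 and 10.85 in NPM cells, against 11.73, 11.70 and 11.88 in NPC cells, a difference of −0.85 (standard error 0.15, adjusted p = 0.106). The groups were far apart for their spread, yet the value did not pass over all features. MRPS35, likewise absent from bacteria, was at 10.46, 10.45 and 10.43 in NPM cells and 11.02, 11.40 and 11.12 in NPC cells, with −0.73 (adjusted p = 0.142). MRPL1, a protein of the mobile stalk beside the exit site for tRNA, had −0.87 (adjusted p = 0.186) and MRPL47, at the rim of the exit tunnel, −0.64 (adjusted p = 0.195). MRPS28, the dimmest of the 77 genes, was at 8.02, 8.0 and 7.54 in NPM cells and 9.02, 9.14 and 8.37 in NPC cells, with −0.99 (standard error 0.26, adjusted p = 0.192). MRPL43 had −0.55 (adjusted p = 0.192) in the feature used, but its 3 features did not share a sign, with 0.32 and −0.22 in the others.

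Co-culture under hypoxia, HPM against HPC, gave a median of −0.26, a change in intensity of −16.2%, against −0.02 over all features, and 61 of 77 values were negative, against 51.5% of all features. No gene passed, where 1.02% of all features did. At an unadjusted p under 0.05, 22 genes (28.6%) were lower and 4 higher, against 12.5% and 8% of all features, and 33 genes had all HPM arrays below all HPC arrays, against 16.4% of all features, while 5 had them above, against 11.3%. The count of lower genes ranged over 14 to 21 with 1 array left out, with 14 without HPM replicate 2 or without HPC replicate 2. It was 10 without the arrays numbered 3. The share over all features in these smaller fits is not given. In the fit of 12 arrays 5 of the genes passed, against 1885 of all 34487 features. With a block for oxygen level and replicate number in that fit, 10 passed, against 2892 of all features.

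MRPS12 was again first, with the HPM and HPC values given above and −0.85 (standard error 0.14, adjusted p = 0.0509). MRPL20, whose bacterial counterpart is among the first proteins to bind during assembly of the large subunit, was at 11.05, 10.996 and 10.82 in HPM cells and 11.67, 11.80 and 11.72 in HPC cells, with −0.78 (standard error 0.14, adjusted p = 0.0563). MRPL27, whose bacterial counterpart reaches toward the site of peptide bond formation, was at 11.02, 10.92 and 11.15 in HPM cells and 11.72, 11.75 and 11.77 in HPC cells, with −0.72 (adjusted p = 0.0611). The tight HPC replicates of both genes lay well above the HPM arrays. MRPL53 had −0.87 (adjusted p = 0.0756), MRPL15 −0.78 (adjusted p = 0.0789) and MRPS7 −0.52 (adjusted p = 0.117). Higher values were seen for MRPS10, a protein of the head of the small subunit, with 11.33, 11.46 and 11.15 in HPM cells and 10.61, 10.78 and 10.61 in HPC cells, and a difference of 0.65 (standard error 0.15, adjusted p = 0.0852). MRPL57 had 0.58 (adjusted p = 0.139), MRPL17 0.39 (adjusted p = 0.233), MRPL10 0.33 (adjusted p = 0.24), MRPL44 0.29 and MRPS27 0.28, with no overlap between groups for any of these but MRPL44.

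Hypoxia in cells grown alone, HPC against NPC, asks what low oxygen does without macrophages. The median of the 77 genes was −0.32, a change in intensity of −19.8%, against −0.0005 over all features, and 69 of 77 values were negative, against 50.1% of all features. No gene passed, where 0.157% of all features did. At an unadjusted p under 0.05, 19 genes (24.7%) were lower and 0 higher, against 8.9% and 8.92% of all features. This count of lower genes ranged over 11 to 19 with 1 array left out, with 11 without HPC replicate 3 or NPC replicate 2. The share over all features in these smaller fits is not given. For 42 genes the HPC arrays lay wholly below the NPC arrays, against 13.5% of all features, and for 1 gene above, against 12.3%. This comparison and NPM against NPC rest on the same 3 NPC arrays, and HPM against NPM and HPM against HPC on the same 3 HPM arrays, so that the pairs of results are not independent.

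After MRPS16, the smallest p values of HPC against NPC belonged to MRPL50, at 8.94, 8.56 and 8.81 in HPC cells and 9.46, 9.82 and 9.51 in NPC cells, with −0.83 (standard error 0.18, adjusted p = 0.108). MRPS34 was at 10.88, 11.26 and 11.26 in HPC cells, against the NPC values given above, with −0.64 (adjusted p = 0.143). MRPS17, a protein with a bacterial counterpart in the body of the small subunit, was at 8.82, 9.04 and 8.64 in HPC cells and 9.42, 9.71 and 9.32 in NPC cells, with −0.65 (adjusted p = 0.157). MRPS17 also had the highest correlation with the other 76 genes. It had −0.62 in NPM against NPC, −0.62 in HPM against HPC and −0.66 in HPM against NPM, none of which passed (adjusted p = 0.247, 0.124 and 0.0761). MRPL41 had −0.59 and MRPL20 −0.49 in HPC against NPC cells (adjusted p = 0.162 for both).

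**Figure D3:**
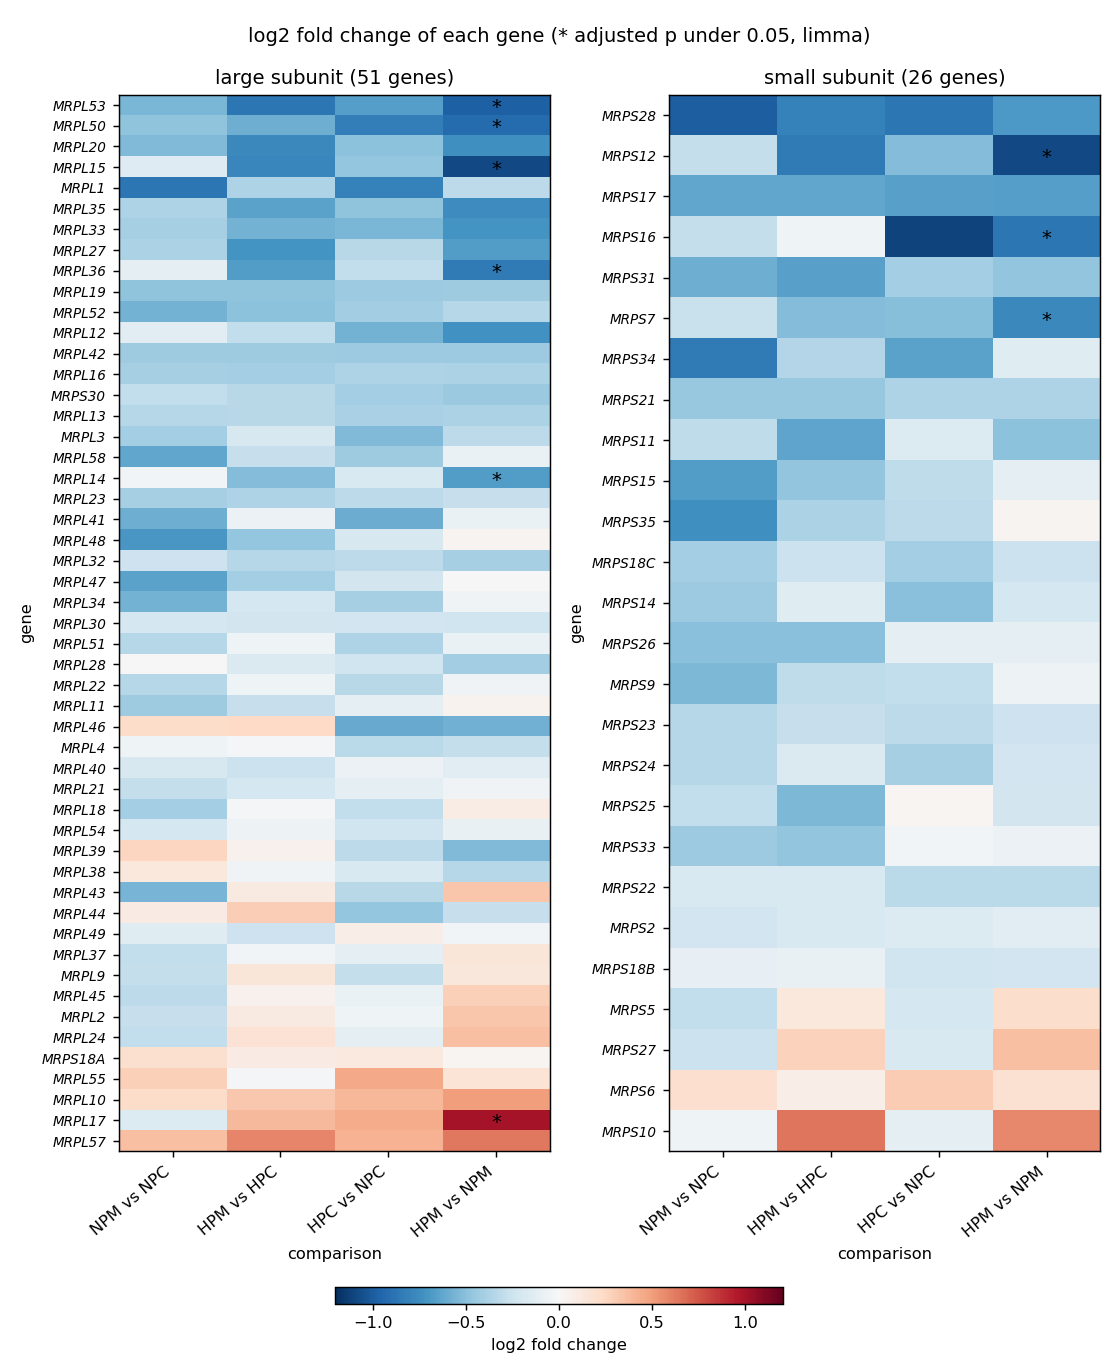
Log2 fold change (colour, blue for lower and red for higher in the first-named group) of each of 51 large-subunit genes and 26 small-subunit genes (rows) in the comparisons NPM against NPC, HPM against HPC, HPC against NPC and HPM against NPM (columns), with an asterisk where the adjusted p of limma was under 0.05. Most rows are blue throughout, 9 asterisks stand in the last column, and MRPL57, MRPL17, MRPL10 and MRPS10 are the reddest rows.

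Whether the co-culture difference itself depended on oxygen was tested with an interaction term, (HPM minus HPC) minus (NPM minus NPC), fitted to the 12 arrays. No gene passed, where 0.452% of all features did, and 2 genes were lower and 2 higher at an unadjusted p under 0.05, against 6.35% and 5.09% of all features. The median was 0.04, against −0.02 over all features, and 33 values were negative, against 51.9% of all features. It was −0.001 without NPC replicate 2, 0.15 without HPM replicate 2 and 0.11 without NPC replicate 3 or without the arrays numbered 3. The genes with the smallest p were MRPS12 with −0.56 (standard error 0.19, adjusted p = 0.27), MRPL15 with −0.62 (adjusted p = 0.331), MRPL43 with 0.67 (adjusted p = 0.243) and MRPL24, a protein close to the tunnel exit, with 0.47 (adjusted p = 0.415). For MRPS12 a gap between HPM and HPC arrays stood beside a smaller gap between NPM and NPC arrays, with −0.85 and −0.29 in the feature used. Its other feature had −0.67 and −0.48, which lie closer together. For MRPL15 the HPM and HPC arrays did not overlap, while the NPM and NPC arrays did. The features of MRPL24 and MRPL43 did not share a sign in HPM against HPC.

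A few genes had values that ran against the rest. MRPL10 anchors the flexible stalk of the large subunit that recruits translation factors. Its log2 intensity was 13.07, 12.84 and 12.90 in HPM cells, 12.63, 12.60 and 12.61 in HPC cells, 12.68, 12.42 and 12.21 in NPM cells and 12.24, 12.46 and 11.95 in NPC cells. The HPM arrays were the highest, and its log2 fold changes were 0.50 in HPM against NPM, 0.33 in HPM against HPC, 0.40 in HPC against NPC and 0.22 in NPM against NPC (adjusted p = 0.12, 0.24, 0.306 and 0.691). MRPL57, a small protein specific to mitochondria, was at 11.52, 11.12 and 11.01 in HPM cells, 10.69, 10.54 and 10.66 in HPC cells, 10.65, 10.49 and 10.60 in NPM cells and 10.56, 9.40 and 10.70 in NPC cells. NPC replicate 2 stood apart, and without it the log2 fold change of MRPL57 in NPM against NPC was −0.05 in place of 0.36. In HPM against NPM it was 0.63 (adjusted p = 0.0748). MRPS6, a small-subunit protein with a bacterial counterpart, had a log2 fold change of 0.30 in HPC against NPC (adjusted p = 0.695), which was −0.11 without NPC replicate 3 and −0.13 without the arrays numbered 3. MRPL55, the counterpart of a bacterial large-subunit protein, had 0.46 in the same comparison (adjusted p = 0.373), and in NPM against NPC its features did not share a sign and their mean gave −0.05 in place of 0.29. MRPL39, a protein related to threonyl-tRNA synthetase, was at 11.43, 11.64 and 11.44 in HPM cells and 12.04, 12.20 and 11.85 in NPM cells, with −0.53 (adjusted p = 0.087), while in NPM against NPC it had 0.26 (adjusted p = 0.635).

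Values were also read by subunit and by origin. The median log2 fold change of the large and the small subunit was −0.27 and −0.22 in HPM against NPM, −0.29 and −0.34 in NPM against NPC, −0.22 and −0.33 in HPM against HPC, and −0.32 and −0.32 in HPC against NPC. At an unadjusted p under 0.05, 10 of 26 small-subunit and 15 of 51 large-subunit genes were lower in NPM against NPC, against 8% of all features. In HPM against HPC 10 of 26 and 12 of 51 were lower, against 12.5% of all features. Genes with a bacterial counterpart had a median of −0.28 and those specific to mitochondria of −0.13 in HPM against NPM. At an unadjusted p under 0.05, 16 of 46 (34.8%) and 4 of 31 (12.9%) were lower, against 14.9% of all features. The share of the genes specific to mitochondria was thus not above the background. In NPM against NPC these medians were −0.32 and −0.31. None of these differences between classes was tested.

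The paralogs MRPS18A, MRPS18B and MRPS18C descend from 1 bacterial small-subunit gene, yet they occupy different places, MRPS18A in the large subunit and the others in the small one, and only MRPS18C was counted above as a bacterial counterpart. MRPS18C had log2 fold changes of −0.41 in NPM against NPC, −0.25 in HPM against HPC, −0.41 in HPC against NPC and −0.25 in HPM against NPM. MRPS18A had 0.19, 0.10, 0.12 and 0.02 in the same order of comparisons, and MRPS18B had −0.10, −0.09, −0.24 and −0.23. None passed, with adjusted p of 0.289 to 0.374 for MRPS18C in the comparisons with NPC cells. The value of 0.02 for MRPS18A turned to −0.01, −0.07 and −0.04 without HPM replicate 1, NPM replicate 1 and NPM replicate 3. The values of MRPS18B in NPM against NPC and in HPM against HPC turned to 0.03 without NPM replicate 3 and to 0.01 without HPM replicate 2. No level of 1 paralog is set against that of another, as each has its own probes.

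Genes of known special functions were read next. MRPL12, the stalk protein that recruits translation factors and that also binds the mitochondrial RNA polymerase, was at 11.25, 11.72 and 11.89 in HPM cells, 11.24, 12.18 and 12.33 in HPC cells, 12.25, 12.39 and 12.40 in NPM cells and 12.27, 12.68 and 12.52 in NPC cells. The HPM arrays lay below the NPM arrays (log2 fold change −0.73, adjusted p = 0.0682), while the HPC arrays were widely spread and overlapped the NPC arrays in part of their range (−0.57, adjusted p = 0.391). MRPL58, a peptidyl-tRNA hydrolase built into the ribosome that frees stalled chains, had −0.63 in NPM against NPC (adjusted p = 0.397), −0.27 in HPM against HPC, −0.43 in HPC against NPC and −0.08 in HPM against NPM, and this last value was 0.04 without HPM replicate 3 and 0.11 without NPM replicate 1. MRPL45, which ties the exit tunnel to the inner membrane, had −0.31 in NPM against NPC (adjusted p = 0.453) and 0.29 in HPM against NPM (adjusted p = 0.303). Its values of 0.05 in HPM against HPC and −0.08 in HPC against NPC turned to −0.03 and 0.01 without HPC replicate 1, and the first was −0.002 without HPM replicate 3. MRPS24, the brightest of the 77 genes, had −0.34, −0.17, −0.40 and −0.23 in NPM against NPC, HPM against HPC, HPC against NPC and HPM against NPM, none of which passed.

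Other genes of mitochondrial translation were taken from lists of the machinery around the ribosome. The 5 remaining subunits without an MRPL or MRPS symbol had medians of −0.42 in NPM against NPC, −0.55 in HPM against HPC, −0.37 in HPC against NPC and −0.43 in HPM against NPM. None of the 5 passed. CHCHD1 had the smallest p of these in HPM against HPC, with −0.78 (adjusted p = 0.0626), followed by PTCD3 with −0.61 (adjusted p = 0.0756), and AURKAIP1 had −0.59 in HPM against NPM (adjusted p = 0.0557). Of 26 assembly and rRNA modification factors 1 passed in HPM against NPM, the methyltransferase MRM2, which fell by 0.81 (adjusted p = 0.0318). That is 3.85% of the list as lower, against 5.79% of all features, so that the share was not above the background. The list medians were −0.11, −0.25, −0.15 and −0.25 in NPM against NPC, HPM against HPC, HPC against NPC and HPM against NPM.

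Of 17 translation factors 4 passed as lower and 0 as higher in HPM against NPM, against 5.79% and 4.65% of all features. The list median was −0.30. SLIRP, which stabilises mitochondrial mRNAs, fell by 0.78 (adjusted p = 0.0294), GFM1, the elongation factor that moves the ribosome along, by 0.75, PDF, which removes the formyl group from new chains, by 0.74 (adjusted p = 0.0304 for both), and the fourth was the release factor MTRF1L with −0.84 (adjusted p = 0.0494). Among 17 mitochondrial tRNA synthetases, MARS2, which loads methionine, fell by 1.12 in HPM against NPM (adjusted p = 0.0296) and no other passed. This is 5.88% of that list as lower, close to the 5.79% of all features. Of 14 genes for transcription and replication of mitochondrial DNA, 2 passed as lower in HPM against NPM (14.3%, against 5.79% of all features). TRMT10C, a subunit of the enzyme that frees tRNAs from the long transcripts, fell by 1.5 (adjusted p = 0.00748). It also passed in HPM against HPC, with −1.23 (adjusted p = 0.0467), where 0.676% of all features passed as lower. TFAM, which packs mitochondrial DNA and starts its transcription, fell by 0.94 in HPM against NPM (adjusted p = 0.0269). The calls of MRM2, of the 4 translation factors and of TRMT10C in HPM against HPC were lost with any 1 of the 6 arrays left out. The call of TRMT10C in HPM against HPC was also lost with the replicate number as a block. Those of MARS2 and TFAM were lost in most fits with 1 array left out. None of the calls of these lists remained without the arrays numbered 3. In HPM against NPM 0 of all 34487 features passed without those arrays, against 3602 with every array. The medians of the transcription and replication list were −0.28, −0.29, −0.43 and −0.35 in NPM against NPC, HPM against HPC, HPC against NPC and HPM against NPM.

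Among 11 regulators of mitochondrial biogenesis, 3 passed as lower and 2 as higher in HPM against NPM, against 5.79% and 4.65% of all features. MAX fell by 1.73 (adjusted p = 0.0069) and MYC rose by 0.89 (adjusted p = 0.0266), partners that bind the E-box together. MXI1, a known hypoxia-induced antagonist of MYC, rose by 1.62 (adjusted p = 0.0131). NRF1 fell by 0.75 (adjusted p = 0.0327), and TFAM, named above, is the remaining gene that passed. None of these calls remained without the arrays numbered 3, and those of MYC and NRF1 were also lost without most or all single arrays, MXI1 without NPM replicate 2. PPARGC1A, the best known coactivator of this program, was not measured here.

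The respiratory chain and the cytosolic ribosome were read beside the mitochondrial ribosome. For 77 respiratory chain and ATP synthase genes the medians were −0.35 in NPM against NPC, −0.26 in HPM against HPC, −0.22 in HPC against NPC and −0.16 in HPM against NPM, with 25, 21, 17 and 15 genes lower at an unadjusted p under 0.05. For 86 cytosolic ribosomal protein genes they were −0.13, −0.10, 0.03 and 0.08, with 5, 6, 1 and 2 lower. The mitochondrial ribosomal genes had 25, 22, 19 and 20, and the shares over all features were 8%, 12.5%, 8.9% and 14.9%. By the adjusted test 4 respiratory chain genes passed as lower and 1 as higher in HPM against NPM, against 5.79% and 4.65% of all features. In HPC against NPC 1 of them passed as higher, where 0.157% of all features passed. Of the cytosolic ribosomal genes 1 passed as lower in HPM against NPM. None of these calls remained without the arrays numbered 3. No test of the difference between the lists was made. Proliferation genes differed with co-culture as well. Of 24 such genes, 22 were lower at an unadjusted p under 0.05 in NPM against NPC, against 8% of all features. In HPM against HPC 19 were lower, against 12.5%. The medians were −0.85 and −0.64, and −0.13 and −0.20 in HPC against NPC and HPM against NPM. By the adjusted test 7 passed as lower in HPM against HPC, against 0.676% of all features. Each of these calls was lost with any 1 of the 6 arrays left out, and with the replicate number as a block. In HPM against NPM 3 passed as lower and 2 as higher, against 5.79% and 4.65%. The calls of CDK1, AURKB and KIF20A were lost with any 1 of the 6 arrays left out. That of AURKA was lost in 5 of these fits and that of CCNB1 without NPM replicate 2. None of these HPM against NPM calls remained without the arrays numbered 3. The part of these differences in the values of the mitochondrial ribosomal genes was not tested.

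**Figure D4:**
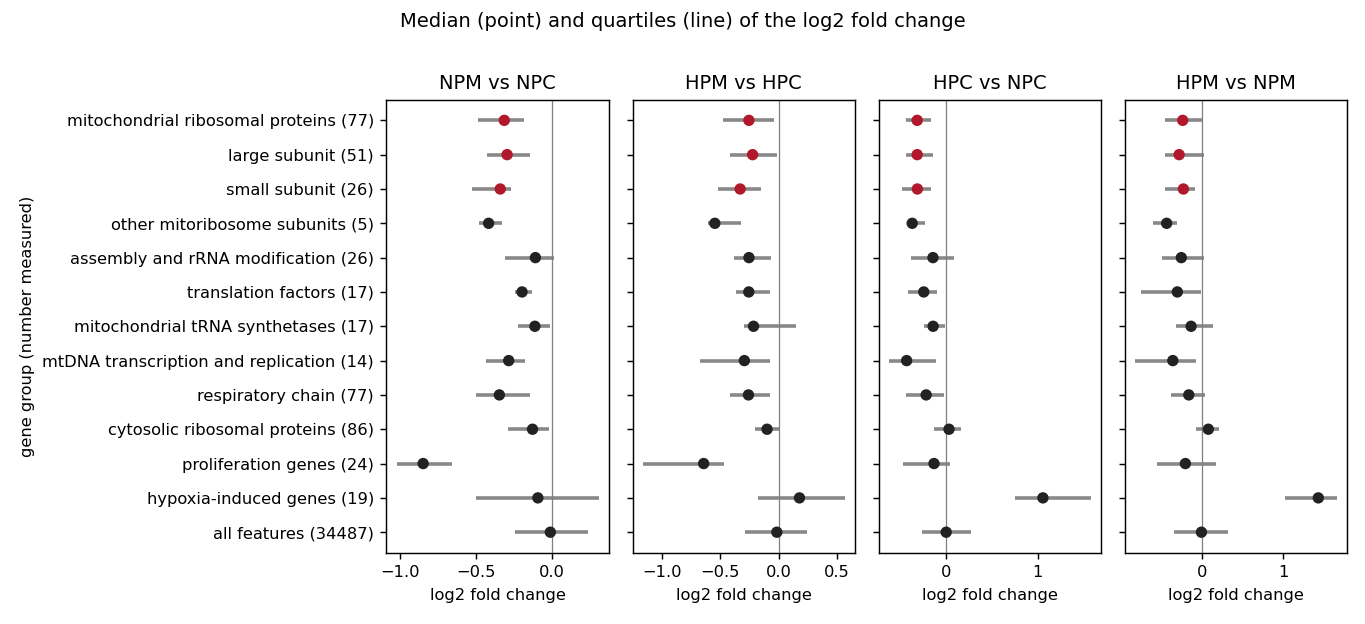
Median log2 fold change (point) and quartiles (line) of the mitochondrial ribosomal protein genes and their subunits (red) and of other gene groups and all features (black), with the number measured beside each name, in the comparisons NPM against NPC, HPM against HPC, HPC against NPC and HPM against NPM (panels, each with its own axis range). The red points lie between −0.22 and −0.34 in every panel, the cytosolic ribosomal proteins between −0.13 and 0.08, and the median over all features near 0.

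Outside the group, the genes whose levels followed the mean of the 77 most closely over the 12 arrays were CCT2 (r = 0.977), a subunit of the chaperonin that folds actin and tubulin, and PCNA (0.971), the sliding clamp of DNA replication. TMPO, LRP8, ZKSCAN3 and RBX1 followed, and then ATP5PF (0.964), a subunit of ATP synthase, and NDUFB3 (0.964), a subunit of complex I, with EGFLAM and DCTPP1 after them. They were the 10 highest of 13345 named genes, whose median r was 0.035. By list, the median r was 0.854 for the other subunits of the mitochondrial ribosome, 0.674 for the respiratory chain, 0.728 for proliferation genes, 0.196 for cytosolic ribosomal proteins and −0.555 for hypoxia-induced genes. These correlations share the arrays, the normalization and the group differences, and are given as a description.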

How the data were processed

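PANC-1 mRNA of 12 samples was measured on 1-colour arrays, 1 array per sample. RNA had been copied with oligo-dT primers and labelled with Cy3. The authors scanned the arrays with GenePix Pro 6.0 and normalized the intensities by RMA in NimbleScan 2.5 (quantile scaling and probe summary), with GeneSpring GX 11.5.1 for filtering, per the supplementary methods. The deposited table held 1 normalized intensity on a linear scale for each of 34487 features and array, and log2 was taken here. Array values have no counts, so that the number of arrays limits the precision. No array was identical to another. Features were named from the platform annotation (14133) or from RefSeq accessions (542), and 19812 had no name. Quantile scaling sets all arrays to nearly the same distribution, so that a shift of most genes would not be seen.

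Each comparison was fitted to its 6 arrays with limma 3.58.1 (lmFit and eBayes, R 4.3.3) over all features with Benjamini-Hochberg adjustment, and a gene passed at an adjusted p under 0.05. The interaction was fitted over 12 arrays. Tables and figures were made in Python 3.11.15. The scripts were tested on simulated data. The members and lists were chosen with earlier results of these data known. Named members were, for each comparison, the 6 largest changes in each direction among those that passed, made up to 6 by the smallest p, with MRPS18A, MRPS18B, MRPS18C, MRPL12, MRPS12, MRPL45, MRPL58 and the genes of highest and lowest mean, and up to 3 genes of smallest p from each list. Genes named in a comparison outside these ranks, and list genes past the third, were named after their values were seen.

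Replicate numbers were checked for pairing by the correlation of residuals of same-numbered arrays, which was 0.338, 0.281 and 0.520 between NPM and NPC and 0.502, 0.267 and 0.543 between HPM and HPC, so that these numbers were taken to pair the arrays. It was not above 0.1 for every pair in the other comparisons. With a block for the number no member passed in either co-culture comparison, as without it. Over all features 0 passed with the block in HPM against HPC, against 353 without it, and 1 in NPM against NPC, against 8. At an unadjusted p under 0.05, 27 members were lower with the block in NPM against NPC, against 25 without it. In HPM against HPC 27 were lower with the block, against 22 without it. A p-value of limma sets the difference between groups against the spread between the arrays within a group, which eBayes moderates over all features. Unless the block is named, p-values and standard errors come from fits without it, also in the co-culture comparisons.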

Additional observations from a re-analysis of the deposited data

Results flagged for a closer look

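None of the 77 mitochondrial ribosomal protein genes had an oxygen-dependent co-culture difference that passed the adjusted test of limma over 12 arrays, and 4 had an unadjusted p under 0.05, as given above. Of the genes in the accompanying lists, 5 passed, where 0.452% of all features did. MAX, the partner of MYC, had a co-culture log2 fold change of −0.81 under hypoxia and 0.60 under normoxia, a difference of −1.41 (standard error 0.22, adjusted p = 0.0329). CCNB1, a cyclin of mitosis, had a difference of −1.07 (standard error 0.17, adjusted p = 0.0318). The hypoxia-induced genes ANKRD37 and HILPDA had differences of 2.32 (standard error 0.28, adjusted p = 0.0116) and 2.28 (standard error 0.20, adjusted p = 0.00266). LCP1, a leukocyte marker of the macrophage list that carcinoma lines can also express, had a difference of 2.92 (standard error 0.37, adjusted p = 0.0146). Its log2 fold change was −3.24 in NPM against NPC (adjusted p = 0.00677) and −2.08 in HPC against NPC (adjusted p = 0.0337). It did not pass in HPM against HPC, so that the difference stands beside a fall with co-culture under normoxia. These 2 calls were lost in 5 and 6 of the 6 fits with 1 array left out, and both with the replicate block. The interaction calls of MAX, CCNB1 and ANKRD37 were lost with the replicate block, and that of MAX also with the mean of its features. Those of MAX and CCNB1 were lost in 11 and 12 of the 12 fits with 1 array left out. The interaction call of LCP1 was lost with HPC replicate 2 or 3 or NPM replicate 1 left out. None of the 5 passed without the arrays numbered 3.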

How the results depend on the processing

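The sign of the median log2 fold change of the 77 genes was the same under every alternative tried for the 4 pairwise comparisons. Leaving out 1 array at a time, it ranged over −0.325 to −0.203 in HPM against HPC, −0.345 to −0.256 in HPC against NPC, −0.283 to −0.163 in HPM against NPM, and −0.00122 to 0.146 for the interaction, which was 0.106 without the arrays numbered 3. The number of genes that passed in HPM against NPM, 9 in the report, ranged over 0 to 3 without 1 array and was 0 without the arrays numbered 3. Over all features 191 to 1952 passed without 1 array. The number of genes was 16 once the dimmest features, those below the 25th percentile by mean, were left out, against 5041 of 25865 features. It was 17 with a trended and robust eBayes, 4 with the methods' t-test after adjustment, and 13 with all 12 arrays in 1 fit. Over all 34487 features 5561, 2291 and 5573 passed in these fits. The same 9 genes passed under repeated quantile scaling, median centring and the mean of a gene's features. With the replicate number as a block, where the numbers were not shown to pair the arrays, 1 gene passed, MRPS12, against 1854 of all features. In the comparisons in which no gene passed, leaving out the dimmest features gave 1, 6 and 2 genes in NPM against NPC, HPM against HPC and HPC against NPC. In the same order 335, 1803 and 826 of 25865 features passed. The trended and robust fit gave 4, 9 and 6 genes, against 940, 2239 and 1639 of 34487 features. The fit of 12 arrays gave 2, 5 and 2 genes, against 872, 1885 and 1452 features. The t-test gave 1 gene in HPM against HPC, against 231 of all features. A block for oxygen level and number in the fit of 12 arrays, added after the data were seen, gave 3 genes in NPM against NPC and 10 in HPM against HPC. Over all features 1147 and 2892 passed in these fits. The cause of these differences was not tested.

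Some values changed sign. MRPL55 in NPM against NPC was −0.0462 as the mean of its features. Leaving out 1 array, the log2 fold change ranged over −0.0458 to 0.604 for MRPL57 and −0.207 to 0.0288 for MRPS18B in NPM against NPC, over −0.0341 to 0.145 for MRPL45 and −0.181 to 0.0120 for MRPS18B in HPM against HPC, over −0.169 to 0.00996 for MRPL45 and −0.108 to 0.547 for MRPS6 in HPC against NPC, and over −0.0673 to 0.162 for MRPS18A and −0.232 to 0.106 for MRPL58 in HPM against NPM. Without the arrays numbered 3, MRPS6 in HPC against NPC was −0.132. With 3 arrays a group, the number of arrays limits the precision of these values.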

Other observations

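Among the 13 mitochondrial ribosomal protein genes with a gene starting close by on the opposite strand, the partners did not all have values of the same sign. EME1, 45 bases from MRPL27, rose by 0.72 in HPM against NPM cells (limma, adjusted p = 0.0426), while MRPL27 itself had a log2 fold change of −0.67. The partners of MRPL49 (FAU, 49 bases away) and MRPL57 (SKA3, 106 bases away) had −0.18 and −0.36, neither of which passed.

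For 14 of the 77 genes several features were on the array. The signs of these features differed within a gene for MRPL43 and MRPL55 in NPM against NPC, for MRPL24 and MRPL43 in HPM against HPC, for MRPL43, MRPL55, MRPS11 and MRPS33 in HPC against NPC, and for MRPL24, MRPL43, MRPL47 and MRPS33 in HPM against NPM. The 77 genes lie on 21 chromosomes, with at most 8 on any of them.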
